A study of Mus musculus with 6 samples.

Results

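DNA repair and Fanconi anaemia genes were followed in mouse bone marrow on 6 Affymetrix arrays, 3 labelled ASXL1-MT and 3 labelled mock. The list held 48 genes, and a gene was measured by every probe set whose platform annotation gave its symbol and no other. This gave 109 of the 45037 probe sets of the table, for 47 of the 48 genes. Xrcc2, a recombination gene, had no probe set of that kind and is not described further. Of the 47 genes, 15 had 1 probe set and 32 had 2 or more, up to 6 for Trp53bp1. No gene was dropped for a low value.

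ASXL1 is a chromatin regulator that is recurrently truncated in myelodysplastic syndrome. The ASXL1-MT arrays came from mice transplanted with ASXL1-MT cells that had a disease like that syndrome, and the mock arrays came from mock-transplanted mice described as normal controls. For both groups the series text gives removal of T cells, B cells and red cell precursors with magnetic beads and antibodies to CD3e, B220 and TER-119, although the source label names this removal for mock alone. The labels do not give strain, age, time after transplant, the mutation, the vector or what the mock mice received. Separate mice are not stated for the replicates, so the p-values here cover the spread from sample to sample, possibly a technical one. Both groups carry the same transplant prefix in their titles, and a transplanted marrow can hold cells left from the host.

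DNA repair pathways are divided by the lesion they mend. The Fanconi proteins unhook crosslinks between DNA strands: a core complex places ubiquitin on FANCD2 and FANCI, and the break that follows is mended by homologous recombination with BRCA1, PALB2 and BRCA2. The kinases ATM and ATR sense breaks and stalled replication and signal through CHEK2 and CHEK1, whereas end joining, mismatch, nucleotide excision and base excision repair deal with other breaks, mispaired bases, bulky adducts and small base damage. Inherited loss of Fanconi genes causes bone marrow failure, and blood stem cells are known to depend on these pathways.

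Promoter sequences are shown for 4 genes, chosen after their values were seen, because repair genes are known targets of the E2F factors, which drive transcription at the entry into DNA synthesis. RefSeq promoter windows of 300 bases, from 250 before to 50 after a start site in assembly GRCm38.p6, were found for 41 of the 48 genes. Chek2 and Msh6 rose in ASXL1-MT marrow and hold an E2F word, Fancg holds one and did not pass the test, and Atm, which had the largest change among the genes, holds none. Capitals mark E2F words (TTTCCCGC, TTTGGCGC, TTTCGCGC or TTTGCCGC) and CCAAT boxes on either strand, and each sequence runs 5′ to 3′ along the gene's own strand.
Chek2, chr5:110839733-110840032, plus strand: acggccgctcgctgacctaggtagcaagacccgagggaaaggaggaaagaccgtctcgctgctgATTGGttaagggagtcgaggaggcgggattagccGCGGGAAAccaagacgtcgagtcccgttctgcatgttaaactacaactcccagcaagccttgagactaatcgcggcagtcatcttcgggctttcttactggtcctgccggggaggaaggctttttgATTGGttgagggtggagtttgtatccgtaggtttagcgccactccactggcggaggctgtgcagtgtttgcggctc
Msh6, chr17:87974800-87975099, plus strand: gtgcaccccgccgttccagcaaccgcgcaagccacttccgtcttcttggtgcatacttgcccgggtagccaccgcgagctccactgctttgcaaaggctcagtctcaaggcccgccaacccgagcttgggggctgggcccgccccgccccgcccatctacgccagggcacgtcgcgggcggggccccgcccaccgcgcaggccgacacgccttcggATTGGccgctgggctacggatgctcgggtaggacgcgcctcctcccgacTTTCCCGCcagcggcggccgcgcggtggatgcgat
Fancg, chr4:43010252-43010551, minus strand: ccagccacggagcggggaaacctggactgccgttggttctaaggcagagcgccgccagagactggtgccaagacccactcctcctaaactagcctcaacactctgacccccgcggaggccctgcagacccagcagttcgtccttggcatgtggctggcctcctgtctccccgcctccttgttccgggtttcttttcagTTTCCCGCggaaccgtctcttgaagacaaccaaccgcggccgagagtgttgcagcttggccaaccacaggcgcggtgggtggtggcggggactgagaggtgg
Atm, chr9:53536622-53536921, minus strand: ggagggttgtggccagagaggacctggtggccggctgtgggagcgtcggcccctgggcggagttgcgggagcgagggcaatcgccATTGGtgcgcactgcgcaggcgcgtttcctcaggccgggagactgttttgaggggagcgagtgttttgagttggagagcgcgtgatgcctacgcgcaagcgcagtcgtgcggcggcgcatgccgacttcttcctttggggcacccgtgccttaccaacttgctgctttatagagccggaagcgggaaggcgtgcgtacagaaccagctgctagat

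In the windows shown, the E2F word of Chek2 began 152 bases before the start site and lay on the opposite strand, that of Fancg began 52 bases before it, and that of Msh6 began 15 bases after it. An E2F word was present in 8 of the 41 genes (19.5%), against 704 of 27025 genes with a window in the whole table (2.6%). The 8 were Bard1, Brca2, Chek2, Fancg, Msh3, Msh6, Rad51c and Xrcc6. A CCAAT box was present in 23 genes (56.1%, against 41.1%), the word TTTGAA of late cell cycle promoters in 2 (4.88%, against 20.2%) and the ETS word CCGGAAGT in 4 (9.76%, against 4.31%). The listed genes' windows were richer in G and C, with a median of 59.2% against 52.7%, and words differ in how far they rest on these bases. Of the 8 genes with a window that rose by gene mean, 2 held an E2F word, as did 6 of the other 33. In these genes' windows no word overlapped a word of another motif. A word in a window is a description and not a binding site, and beyond these counts no link between words and array changes was tested.

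Repair genes of 5 of the 9 pathways rose in ASXL1-MT marrow by gene mean, and no gene of any pathway fell. This tally depends on which probe sets are fitted and how they are combined. With bright probe sets alone, defined further on, all 9 pathways held a gene that rose. Brightness rests on the highest arrays of each probe set, which for a gene that rose can be the ASXL1-MT arrays. This tally is thus a description, and the share of all genes that rose in that fit is not given. Fitted by probe set, 23.6% of all bright ones rose and 15.8% fell. With the least variable probe set of each gene Blm and Ercc5 also rose. That probe set is picked by its spread within groups in these same arrays, which favours small p-values. Blm has 1 probe set, and its change was 0.65 in each fit. Its limma adjusted p was 0.0513 by gene mean, 0.00727 with bright probe sets and 0.0252 with the least variable ones. Of 47 genes, 9 rose and 0 fell: the kinases Atm, Atr and Chek2, the poly(ADP-ribose) polymerases Parp1 and Parp2, the mismatch gene Msh6, the recombination genes Palb2 and Nbn and the Fanconi core gene Fancb. This is 19.1% of the genes, against 6.63% of all 18193 genes that rose and 4.75% that fell (11.4% in all; limma, Benjamini-Hochberg adjusted over all genes). The list was chosen with earlier results of these data known, so this share is a description. The 9 changes ran from 0.63 (Fancb) to 1.37 (Atm) on the log2 scale. A change is always the mean of the 3 ASXL1-MT arrays minus the mean of the 3 mock arrays, given with its standard error (SE) from limma, and the gene value is the mean over its probe sets.

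Values are deposited log values centred on each probe set's median over the 6 arrays, taken here as log2. A value above 0 therefore means brighter than that probe set's own middle, and no value shows how abundant a transcript was. By this centring, when the groups do not overlap the lowest array of one and the highest of the other lie equally far from 0. The median over all 47 genes was 0.14, 0.25 and 0.20 in ASXL1-MT replicates 1 to 3 and -0.27, -0.24 and -0.22 in mock replicates 1 to 3. All 3 ASXL1-MT arrays lay above all 3 mock arrays in this median. Over all genes of the table the medians were 0.02, 0.05 and 0.05 against -0.07, -0.04 and -0.06, a shift of the same sign.

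The median change was 0.43 over the listed genes and 0.11 over all genes, so relative to the table the repair genes' median was 0.33. It was positive in 40 of 47 genes (85.1%, against 56.6% of all genes), and the range was -0.25 to 1.37. At an unadjusted limma p under 0.05, 18 of the 47 genes were higher and 0 lower, where 18.1% of all genes were higher and 10.9% lower. In 23 genes (48.9%) all ASXL1-MT arrays lay above all mock arrays, against 23.5% of all genes, and in 0 genes did they lie below, against 14.4%. With 3 arrays against 3, an exact permutation test of a single gene cannot go below a p of 0.1, so calls rest on limma's spread shared over all genes.

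Counted by probe set, 18 of 109 rose and 0 fell (16.5%, against 8.1% of all probe sets with a call, 4.73% that rose and 3.37% that fell), and they belonged to 13 genes. Of these genes 7 also passed by gene mean. Fancl, Fancc, Rad54l, Trp53bp1, Chek1 and Pms2 passed through 1 or 2 probe sets alone, and Nbn and Parp2 by gene mean alone, which gives 15 genes with a call of either kind and 32 with none. Another 9 probe sets of 9 genes had an adjusted p from 0.05 to 0.06, so the threshold falls in a crowded stretch. At an unadjusted p under 0.05, 43 probe sets were higher (16.1% of all probe sets) and 1 lower (10.2%), a Wrn probe set. All ASXL1-MT arrays lay above all mock arrays in 55 (50.5%, against 21.7% of all probe sets) and below them in 1, the same Wrn probe set (13.7% of all).

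**Figure D1:**
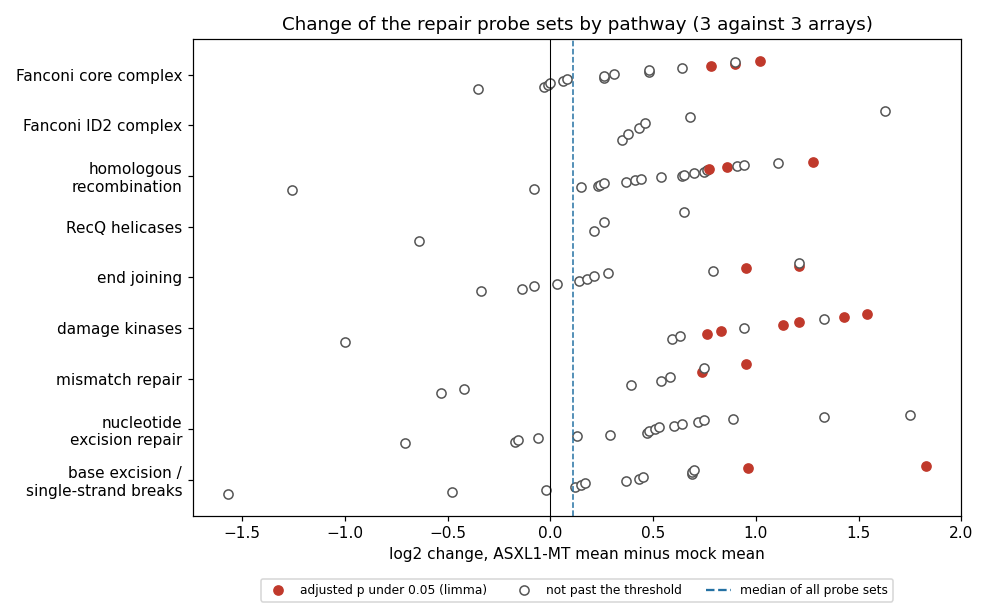
Change of each of the 109 repair probe sets (ASXL1-MT mean minus mock mean, log2 scale, 3 against 3 arrays) in rows by repair pathway, with small vertical offsets to part the points. The 18 filled points passed the adjusted threshold and all lie to the right of the dashed line, which marks the median of all probe sets (0.11), and 6 of them are damage kinases.

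The damage kinases had the highest median of the pathways. ATM responds to broken DNA ends, ATR to single-stranded DNA at stalled forks, and CHEK2 and CHEK1 are the checkpoint kinases downstream of ATM and ATR, respectively. Of the 4 genes 3 rose, and the median of the 4 was 0.47, 0.51 and 0.53 in the ASXL1-MT arrays and -0.55, -0.57 and -0.52 in the mock arrays. The pathway median change was 1.04.

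Atm was measured by 2 probe sets that both rose. Probe set 1421205_at read 0.54, 0.49 and 0.75 in ASXL1-MT replicates 1 to 3 and -0.69, -0.66 and -0.49 in mock replicates 1 to 3. Probe set 1428830_at read 0.60, 0.59 and 0.65 against -0.98, -1.21 and -0.59. The arrays of each group kept together and apart from the other in both probe sets. The gene mean was higher by 1.37 (SE 0.16, 2.59-fold, limma adjusted p = 0.0138).

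Atr had 3 probe sets with no overlap of the groups in any. Its gene means were 0.55, 0.48 and 0.43 in the ASXL1-MT arrays and -0.40, -0.45 and -0.57 in mock marrow, a change of 0.96 (SE 0.13, 1.95-fold, limma adjusted p = 0.0169). Probe set 1438921_at gave 1.43 (SE 0.24) and 1427197_at by 0.83 (SE 0.15), both past the threshold, and 1445091_at by 0.63 (SE 0.17, adjusted p = 0.0894). The sizes thus differed between probe sets of 1 gene while the direction did not.

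Chek2, with 1 probe set, read 0.40, 0.74 and 0.64 in the ASXL1-MT arrays and -0.70, -0.40 and -0.51 in mock marrow. The lowest ASXL1-MT array and the highest mock array were 0.40 and -0.40, so the groups did not overlap, and the change was 1.13 (SE 0.17, 2.18-fold, limma adjusted p = 0.0199). Chek1 had 5 probe sets that disagreed. Probe set 1449708_s_at read 0.30, 0.37 and 0.39 against -0.51, -0.41 and -0.30, a change of 0.76 (SE 0.14, limma adjusted p = 0.0398), and its suffix marks probes that may detect several transcripts. Probe sets 1450677_at and 1439208_at gave 0.59 and 0.94 with no overlap of the groups but did not pass (adjusted p = 0.0696 and 0.0968).

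The other Chek1 probe sets were far noisier. Probe set 1420032_at had a change of -1.0 (SE 0.86, adjusted p = 0.528), with ASXL1-MT arrays at -2.18, 0.89 and -1.03 and mock arrays at 0.60, -0.60 and 0.68. Probe set 1420031_at had a change of 1.33 (SE 1.28), with arrays from -1.92 to 1.85. Both mix the groups, and the gene mean of Chek1 was 0.52 (SE 0.24, adjusted p = 0.213). It was 0.12 (adjusted p = 0.765) with bright probe sets alone, which include 1420032_at. With its least variable probe set, 1449708_s_at, it was 0.76 (limma adjusted p = 0.0112), but that choice uses the spread in these same arrays.

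In base excision and single-strand break repair 2 of 6 genes rose, the polymerases that mark nicked DNA with poly(ADP-ribose). Parp1 had gene means of 0.39, 0.67 and 0.61 in the ASXL1-MT arrays and -0.56, -0.40 and -0.51 in mock marrow, and its change was 1.04 (SE 0.14, 2.06-fold, limma adjusted p = 0.018). None of its 4 probe sets overlapped between the groups. Probe set 1443573_at had the largest change of the 18 called probe sets, 1.83 (SE 0.30, 3.54-fold, limma adjusted p = 0.0322), with ASXL1-MT arrays at 0.56, 1.60 and 1.15 and mock arrays at -0.56, -0.86 and -0.75. The remaining 3 gave 0.96, 0.69 and 0.69, of which the first passed.

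Parp2 read 0.42, 0.23 and 0.37 against -0.49, -0.23 and -0.35, a change of 0.70 (SE 0.14, 1.62-fold). It passed among genes (limma adjusted p = 0.0385) and missed the threshold among probe sets (0.0554), although both fits use the same single probe set. Xrcc1, the scaffold of single-strand break repair, and Neil1, a DNA glycosylase, had changes of 0.45 (adjusted p = 0.199) and 0.43 (0.105) with no overlap of the groups. Lig3, the ligase that partners XRCC1, and Ogg1, the glycosylase for oxidised guanine, had changes of -0.15 (adjusted p = 0.696) and -0.25 (0.775) with overlapping arrays. Of the 6 genes, 4 did not pass, and Parp2 passed by a small margin that it lost in all 6 fits without 1 array (adjusted p from 0.0852 to 0.136).

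Homologous recombination had 2 of 11 measured genes past the threshold. Palb2, which bridges BRCA1 and BRCA2, read 0.31, 0.82 and 0.61 in the ASXL1-MT arrays and -0.93, -0.31 and -0.87 in mock marrow, a change of 1.28 (SE 0.24, 2.43-fold, limma adjusted p = 0.0333). ASXL1-MT replicate 1 and mock replicate 2 lay nearest each other. Nbn, a subunit of the complex that first binds broken ends with RAD50, read 0.23, 0.35 and 0.38 against -0.23, -0.47 and -0.30, a change of 0.65 (SE 0.14, 1.57-fold, limma adjusted p = 0.0428). Its single probe set missed the threshold among probe sets (0.0598).

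Rad54l, a motor that assists strand invasion, had 3 probe sets of like size and 1 noisy one. Probe set 1423124_x_at read 0.37, 0.56 and 0.44 against -0.39, -0.37 and -0.45, a change of 0.86 (SE 0.14, limma adjusted p = 0.0311). Probe set 1450862_at read 0.35, 0.34 and 0.30 against -0.62, -0.40 and -0.30, a change of 0.77 (SE 0.15, limma adjusted p = 0.0462). Both kept the groups apart, and the suffix of the first marks probes that may also detect other genes. Probe set 1423123_at gave 0.75 (adjusted p = 0.0527) and 1453926_at by 0.37 (SE 0.52), and the gene mean of 0.68 missed the threshold (adjusted p = 0.0543).

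Rad51c, which acts in strand exchange, had a change of 1.01 (SE 0.31, adjusted p = 0.0955) and Xrcc3, its partner, one of 0.74 (SE 0.21, adjusted p = 0.084), both with no overlap of the groups. Brca2, a mediator of recombination, had a change of 0.41 (adjusted p = 0.147), and Brca1 one of 0.33 (0.298). One of the 4 Brca1 probe sets, 1424629_at, gave 0.70 with an adjusted p of 0.0569, and another, 1427698_at, by -0.08. Rad50, which tethers broken ends, had a change of -0.25 (SE 0.35) by gene mean, from probe sets of opposite sign. Its probe set 1422630_at gave 0.76 (SE 0.16, adjusted p = 0.0513) without overlap, and 1425939_at by -1.26 (SE 0.59, adjusted p = 0.255) with overlap. Brip1, Bard1 and Rad52 had changes of 0.24, 0.23 and 0.39 with overlapping arrays.

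The Fanconi core complex had 1 of 7 genes past the threshold by gene mean and 3 of 16 probe sets. Fancb, part of the catalytic module, had gene means of 0.38, 0.25 and 0.21 in the ASXL1-MT arrays and -0.29, -0.42 and -0.33 in mock marrow, a change of 0.63 (SE 0.13, 1.55-fold, limma adjusted p = 0.0406). Its probe set 1437780_at passed (0.78, SE 0.15, adjusted p = 0.0417), and 1446226_at gave 0.48 (adjusted p = 0.178).

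Fancl is the ubiquitin ligase of the core complex. Its probe set 1423624_at read 0.55, 0.49 and 0.48 against -0.48, -0.56 and -0.49, a change of 1.02 (SE 0.13, 2.02-fold, limma adjusted p = 0.0222). Its SD within groups was 0.0438, below that of every listed probe set but Ercc5 1450935_at (0.0393). The other probe set, 1432337_at, had a change of 0.26 (SE 0.63) with arrays on both sides of 0 in each group, and the gene mean of 0.64 did not pass (adjusted p = 0.278).

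Fancc, an adaptor of the complex, had probe sets of opposite sign. Probe set 1450861_at read 0.48, 0.33 and 0.52 against -0.33, -0.63 and -0.41, a change of 0.90 (SE 0.16, limma adjusted p = 0.0362). Probe set 1442265_at gave 0.48 (adjusted p = 0.115), and 1447632_at by -0.35 (SE 0.24, adjusted p = 0.42), with mock arrays at 0.39, 0.38 and -0.15 and ASXL1-MT arrays at -0.35, -0.24 and 0.15. In the last the groups overlapped. Fancm, the translocase that recruits the complex, had a change of 0.54 (adjusted p = 0.293), and Fanca, Fance and Fancg had changes of 0.14, -0.01 and 0.16 with adjusted p-values of 0.91, 0.991 and 0.6.

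The substrates of the core complex did not pass. Fancd2 had gene means of 0.35, 0.42 and 0.03 in the ASXL1-MT arrays and -0.52, -0.15 and -0.85 in mock marrow, a change of 0.77 (SE 0.23, adjusted p = 0.0968). Fanci had -0.10, 0.30 and 0.61 against -0.12, -0.24 and -0.11, a change of 0.42 (SE 0.22, adjusted p = 0.267). In both the groups did not overlap, narrowly for Fanci, where ASXL1-MT replicate 1 stood just above the highest mock array.

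The RecQ helicases, which unwind recombination intermediates, did not pass either. Blm, the helicase lost in Bloom syndrome, read 0.50, 0.21 and 0.30 against -0.43, -0.30 and -0.21, a change of 0.65 (SE 0.15) that missed the threshold (limma adjusted p = 0.0513). Wrn, lost in Werner syndrome, had gene means of -0.19, 0.00 and -0.08 against 0.01, -0.14 and 0.04, a change of -0.06 (adjusted p = 0.829). Its 3 probe sets differed. Probe set 1425982_a_at was the single listed one with all ASXL1-MT arrays below all mock arrays, at -0.69, -0.26 and -0.23 against 0.24, 0.26 and 0.23 (change -0.64, SE 0.18, limma adjusted p = 0.0975). The others gave 0.26 and 0.21.

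In mismatch repair 1 of 3 genes rose. Msh6, which recognises mispaired bases, read 0.38, 0.46 and 0.47 in the ASXL1-MT arrays and -0.38, -0.73 and -0.44 in mock marrow, a change of 0.95 (SE 0.15, 1.93-fold, limma adjusted p = 0.0232). Pms2, which cuts the new strand, had probe sets of both signs. Probe set 1423539_at read 0.35, 0.47 and 0.27 against -0.35, -0.50 and -0.27, a change of 0.74 (SE 0.15, limma adjusted p = 0.0479). Probe set 1432421_at gave 0.54 (adjusted p = 0.202) and 1436273_at by -0.53 (SE 0.29, adjusted p = 0.321), with overlapping arrays in the last. Msh3, which recognises larger loops, had 4 probe sets from -0.42 to 0.75, of which 1424166_at came nearest (0.75, adjusted p = 0.0593).

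End joining had 0 of 5 genes past the threshold by gene mean and 2 of 12 probe sets, both of Trp53bp1, which shields broken ends from resection. Probe set 1426956_a_at read 0.31, 0.73 and 0.66 against -0.87, -0.74 and -0.31, a change of 1.21 (SE 0.22, 2.31-fold, limma adjusted p = 0.0398). Probe set 1426957_at read 0.28, 0.47 and 0.70 against -0.64, -0.48 and -0.28, a change of 0.95 (SE 0.19, limma adjusted p = 0.0457). Both kept the groups apart, while the other 4 probe sets gave 0.03 to 0.21 with overlap and the gene mean was 0.45 (adjusted p = 0.126). Lig4, the ligase of the pathway, had a change of 1.21 (SE 0.33, adjusted p = 0.0765) without overlap. Xrcc4, the partner of LIG4, had a change of -0.11, and the Ku subunits Xrcc5 and Xrcc6 had 0.28 and 0.23. For Xrcc6 probe set 1417437_at gave 0.79 (adjusted p = 0.0504) and 1428504_at by -0.34 (SE 0.79).

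Nucleotide excision repair had 0 of 7 genes and 0 of 17 probe sets past the threshold, and at an unadjusted p under 0.05 also 0 of 7 genes by gene mean. Ercc5, the nuclease that cuts on the 3′ side of a lesion, had gene means of 0.74, -0.13 and 0.57 against -0.55, -0.18 and -0.10, a change of 0.67 (SE 0.28, adjusted p = 0.192). ASXL1-MT replicate 2 lay below the highest mock array. Its probe set 1450935_at was steadier, at 0.26, 0.28 and 0.35 against -0.33, -0.31 and -0.26 (change 0.60, SE 0.13, adjusted p = 0.0572). Taken as the gene's value, this probe set passed with bright probe sets alone (limma adjusted p = 0.00303) and as the least variable probe set of the gene (0.0146). Brightness rests on the highest arrays of a probe set, here the ASXL1-MT ones. The least variable choice uses the spread in these same arrays, which favours a small p. Both p-values are thus given as descriptions. Ercc2, a helicase of TFIIH, had 1.27, -0.32 and 1.13 against -0.49, 0.28 and -0.79, a change of 1.03 (SE 0.53, adjusted p = 0.271), again with ASXL1-MT replicate 2 apart from the other two. Ercc1, Ercc3, Ercc4, Xpa and Xpc had changes of 0.29, -0.06, 0.79, 0.06 and 0.13, with adjusted p-values from 0.282 to 0.972. The median change of the pathway was 0.29 by gene, against 0.43 over the listed genes, and 0.51 by probe set, against 0.48 over the listed probe sets. Its probe sets were noisier, with a median SD within groups of 0.35 against 0.245. Bright ones, defined further on, made up 35.3% of them, against 46.8% of the listed probe sets. The difference between this pathway and the others was not tested.

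**Figure D2:**
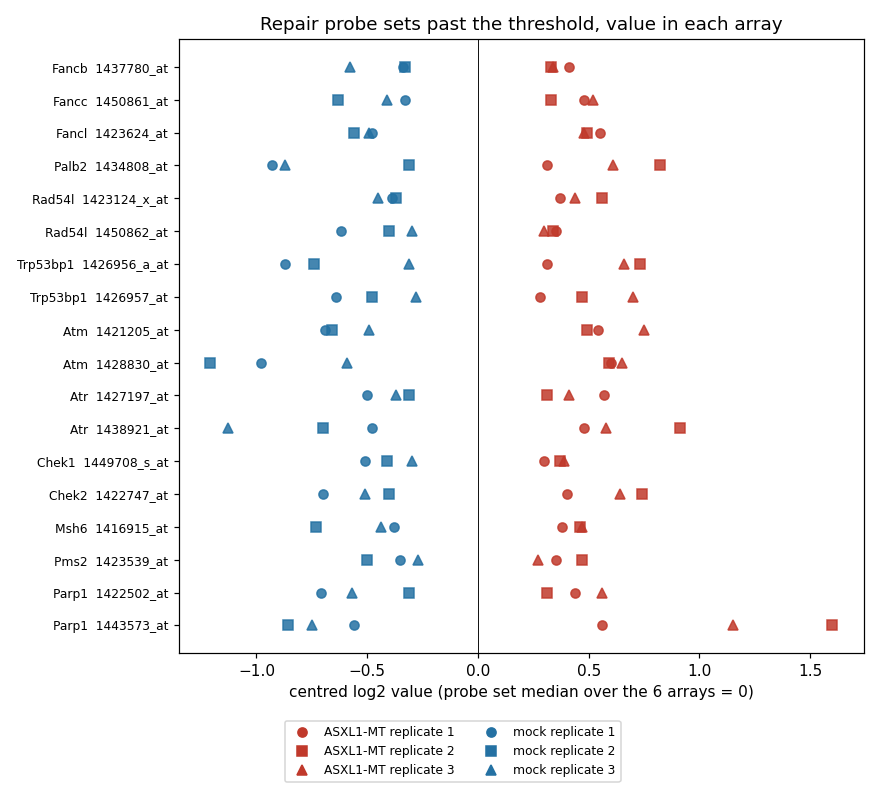
Centred log2 value in each of the 6 arrays for the 18 repair probe sets past the adjusted threshold, ASXL1-MT and mock marked separately. In every row the 3 ASXL1-MT points lie above the 3 mock points, and the difference of the group means is largest for Parp1 1443573_at (1.83).

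Signal brightness differed between the probe sets with and without a call. Probe sets are called bright if the rounding of the deposited values points to a log value of at least 8 in their 3 highest arrays. That level is a signal of 256 or more. A dimmer probe set can show the same rounding by accident, so the rule is approximate. Of the 109 probe sets 51 were bright (46.8%, against 38.2% of all), and 15 of the 18 called probe sets were. Among all bright probe sets 7.71% rose and 6.11% fell in the same fit. When the bright probe sets were fitted alone, 30 of the 51 rose and 0 fell (58.8%), for 21 genes, against 23.6% of all bright probe sets that rose and 15.8% that fell, and the 15 called before were among the 30. The choice of bright probe sets rests on the highest arrays of each, so this count is given as a description.

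Calls depended on each array. With 1 array left out, limma called 1 of the 109 probe sets without ASXL1-MT replicate 1 and 0 without any other array. In these fits 39 to 41 of the 109 had an unadjusted limma p under 0.05 in either direction. Of all 45037 probe sets, 9076 (without ASXL1-MT replicate 3) to 10887 (without ASXL1-MT replicate 1) did. The count of genes was 4, 0 and 0 without ASXL1-MT replicate 1, 2 or 3 and 2, 1 and 1 without mock replicate 1, 2 or 3. Atm passed in 4 of these 6 fits, with adjusted p from 0.0392 to 0.0649 and a change from 1.29 to 1.49. Atr passed in 2, Chek2 and Parp1 in 1 each, and the other 5 genes in none, although each of the 9 changes stayed positive, from 0.58 for Fancb upward. In the table as a whole the count of probe sets fell from 3646 to between 66 and 1142. Equal array medians or quantile normalization left 6 of the 9 genes and 12 of the 18 probe sets, all higher. Fancb, Nbn and Parp2 lost their calls with equal medians, where their changes were 0.55, 0.57 and 0.62 in place of 0.63, 0.65 and 0.70 and their adjusted p-values 0.0628, 0.0602 and 0.0541.

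The wider repair machinery showed the same direction. Its list too was chosen with earlier results of these data known, so the shares describe it and are not independent support. Of 104 further repair genes listed, 93 were measured, and 22 rose and 0 fell (23.7%, against 6.63% of all genes that rose and 4.75% that fell). The median change was 0.41, against 0.11 over all genes, with 15 negative changes. Without 1 array limma called 0 to 5 of them: 5, 0 and 0 without ASXL1-MT replicate 1, 2 or 3 and 5, 2 and 4 without mock replicate 1, 2 or 3. The largest changes past the threshold were those of Rad54b, a relative of Rad54l (1.52, SE 0.19, 2.87-fold, adjusted p = 0.015), and Fancf, the adaptor of the Fanconi core (1.43, SE 0.24, 2.69-fold, adjusted p = 0.0243). Next were Rad1, a subunit of the checkpoint clamp (1.34), Mlh3, a mismatch repair gene (1.29), Mbd4, a glycosylase for mispaired thymine (1.19), and Exo1, an exonuclease of resection and mismatch repair (1.14). The adjusted p-values of these 4 lay between 0.0264 and 0.0352.

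By pathway, the further genes that rose were 2 of 12 in Fanconi and crosslink repair, 4 of 15 in homologous recombination, 3 of 6 in end joining, 4 of 16 in damage signalling and 2 of 2 in mismatch repair. In base excision and single-strand break repair 5 of 17 rose, and in translesion synthesis and direct reversal 2 of 10. In nucleotide excision repair 0 of 15 rose, with a median change of 0.23, and 5 of the 15 were higher at an unadjusted p under 0.05.

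**Figure D3:**
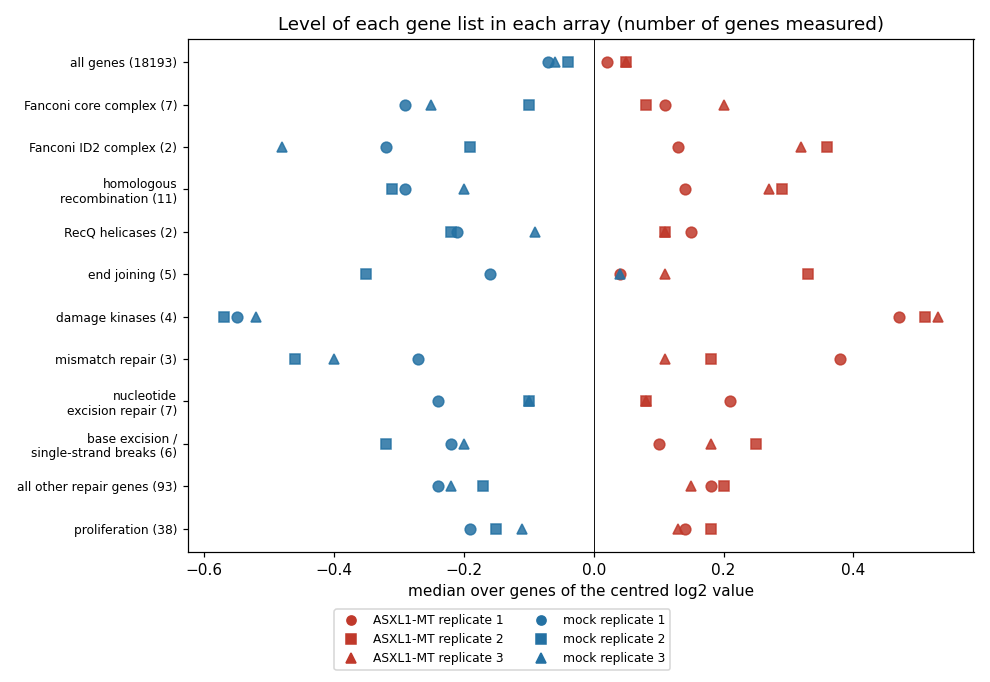
Median over genes of the centred log2 value in each of the 6 arrays, for the repair genes by pathway, the further repair genes, proliferation genes and all genes, with the number of genes measured. The damage kinases lie farthest from 0 (0.47 to 0.53 in ASXL1-MT, -0.57 to -0.52 in mock arrays), and in end joining mock replicate 3 and ASXL1-MT replicate 1 meet at 0.04.

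Many repair genes are transcribed in dividing cells, so proliferation genes were read from the same fit. Of 38, 2 rose and 0 fell (5.26%, near the 6.63% of all genes that rose): Mcm2, of the replicative helicase (0.70, SE 0.13, limma adjusted p = 0.0308), and Aurkb, a mitotic kinase (0.60, SE 0.13, limma adjusted p = 0.048). The change was positive in 36 of 38, all ASXL1-MT arrays lay above all mock arrays in 23 (60.5%, against 23.5% of all genes), and the median change was 0.33, against 0.43 for the repair genes. Their medians were 0.14, 0.18 and 0.13 in the ASXL1-MT arrays and -0.19, -0.15 and -0.11 in mock marrow, so they moved in the same direction array by array. Their part in the repair genes' result was not tested.

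Cell type markers also differed between the groups, and in bulk marrow fewer cells of a type and less RNA per cell cannot be told apart. Over all genes 6.63% rose and 4.75% fell. Mature neutrophil markers fell in 6 of 12 (median -0.83), granulocyte progenitor markers in 2 of 7 (-0.39), megakaryocyte markers in 4 of 6 (-2.05) and basophil and mast cell markers in 2 of 5 (-0.87). Dendritic cell markers rose in 9 of 9 (2.71) and stem and progenitor markers in 4 of 11 (0.61, with Flt3 in both lists). Stroma and endothelium markers rose in 3 of 7 (0.83). In the stem and progenitor list 2 changes were negative, Hlf at -3.18 (limma adjusted p = 0.0548) and Slamf1 at -0.69. In the stroma and endothelium list 1 was, Col1a1 at -1.48 (limma adjusted p = 0.103). Single markers passed among the erythroid markers (1 of 8, median 1.14, with 8 of 8 changes positive) and the B cell markers (1 of 9, median -0.47, with 7 of 9 changes negative). Both counts of calls are near the share over all genes. Of 9 T and NK cell markers 3 rose and 1 fell (0.78), and of 6 monocyte and macrophage markers 0 passed (0.29). The samples are labelled as myeloid marrow cells. A bright probe set was present for 11 of 12 mature neutrophil, 7 of 7 granulocyte progenitor, 5 of 6 monocyte, 7 of 9 dendritic cell, 8 of 11 stem and progenitor, 4 of 5 basophil and mast cell and 2 of 6 megakaryocyte markers. The same held for 3 of 9 B cell, 3 of 9 T and NK cell, 3 of 8 erythroid and 1 of 7 stroma and endothelium markers. Brightness depends on the probes as well as the transcript, so these counts do not rank the cell types. Array medians of the neutrophil markers were -0.56, -0.31 and -0.41 in the ASXL1-MT arrays and 0.27, 0.42 and 0.51 in mock marrow, and those of the stem and progenitor markers 0.22, 0.36 and 0.33 against -0.41, -0.25 and -0.52. Whether the repair genes moved with the mix of cells was not tested.

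**Figure D4:**
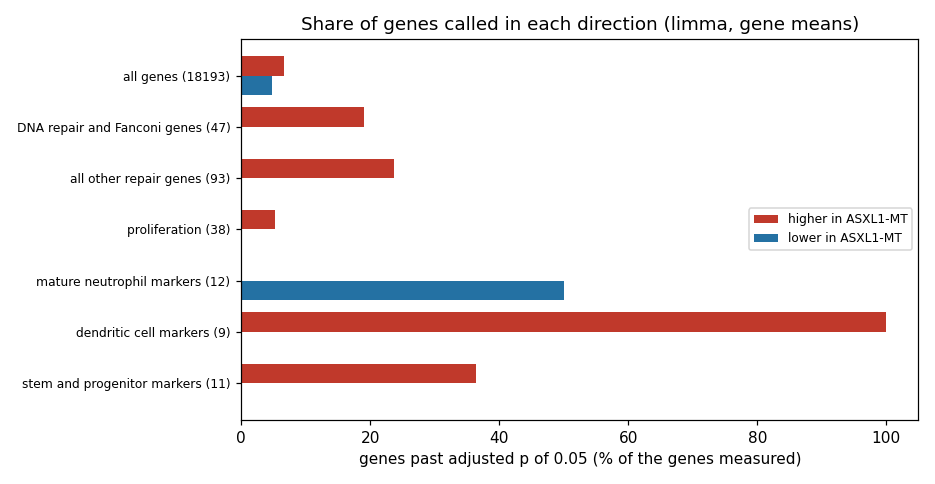
Percentage of measured genes past the adjusted threshold, higher or lower in ASXL1-MT marrow (bars from 0), for all genes, the 47 repair genes, the further repair genes, proliferation genes and markers of 3 cell types. The share of higher genes is 19.1% for the repair genes and 6.63% for all genes, and 100% for the 9 dendritic cell markers.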

How the data were processed

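RNA of 3 ASXL1-MT and 3 mock marrow samples was hybridised to Affymetrix mouse arrays, and groups were read from the sample titles. Signals were made with MAS5, per the submitters' processing notes. The deposited values were taken as log2 and lie centred on each probe set's median over the 6 arrays (medians of 0 to within 5e-07). Log base, scaling and centring are not stated and were read from the values. Column medians were 0.021, 0.050 and 0.048 for ASXL1-MT and -0.045, -0.028 and -0.053 for mock. Of 45037 probe sets 34945 had 1 gene symbol, 932 several and 9160 none here.

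limma 3.58.1 (lmFit, eBayes, R 4.3.3) compared the groups with no other term, two-sided, over all probe sets or over the means of 18193 genes, with Benjamini-Hochberg adjustment and a threshold of 0.05. The scripts were tested on simulated data. A probe set was bright if its 3 highest arrays lay on the rounding step of 20 binary places, within 0.1 of a step. Promoters came from RefSeq, GRCm38.p6. No coordinates of probe sets were used. The number of arrays limits the precision.

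The members and lists were chosen with earlier results of these data known. Every listed gene was counted. Genes were named with all arrays if a probe set or the gene mean passed, with the 2 of smallest p in a pathway without a call, and the text gives other listed genes by their change. Of further repair genes the 6 largest past the threshold were named, and of proliferation genes all that passed (up to 4). Alternatives were equal array medians, quantile normalization, bright probe sets alone, robust eBayes, a replicate block, each gene's least variable probe set, and leaving out each array.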

Additional observations from a re-analysis of the deposited data

How the results depend on the processing

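Counts of all probe sets, listed repair probe sets, listed repair genes and further repair genes are given in this order, with 3646, 18, 9 and 22 as reported. Equal array medians gave 3474, 12, 6 and 20, quantile normalization 3657, 12, 6 and 18, and robust eBayes 3137, 15, 9 and 21. The split of all calls, 2130 higher and 1516 lower as reported, became 1734 and 1740 with equal medians and 1751 and 1906 with quantiles, while the repair genes and probe sets called stayed all higher. Bright probe sets alone gave 6778, 30, 20 (of 34) and 35, where 33 were higher and 2 lower (Sem1 and Babam2, named after their values were seen). The probe set of smallest spread gave 21 listed and 34 further repair genes, of which 1 of the latter, Sem1, was lower. The probe set of smallest spread is picked by the spread within groups in these same arrays, which favours small p-values. Brightness rests on the highest arrays of each probe set. The share of all genes called is not given for either gene fit, so the counts of both settings are descriptions. Fewer probe sets were tested in the bright fit, and the cause of the other differences was not tested.

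With the replicate block limma called 0 of each, with 9874, 42, 13 and 30 at an unadjusted p under 0.05. The titles of same-numbered samples share only a number. Their deviations from the group means correlated at -0.01, -0.01 and -0.01 over all probe sets for replicates 1 to 3. Over bright probe sets the values were -0.05, -0.06 and 0.01. Whether the samples are paired cannot be told from these values. The block leaves fewer degrees of freedom. Without 1 array in turn the counts ran from 66 to 1142, 0 to 1, 0 to 4 and 0 to 5. Leaving out arrays from the bright probe sets, an alternative chosen after seeing the data, gave 4172 to 5994 of all (5994 without ASXL1-MT replicate 1, 5830 without mock replicate 3) and 27 to 31 of the 51 listed, with 29 without replicate 1 of either group and 31 without mock replicate 3, all of the listed ones higher.

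The gene Fancc turned to -0.35 (adjusted p = 0.217) with bright probe sets alone, which leave 1 of its 3. Wrn turned from -0.06 to 0.24 (0.124) with bright probe sets alone and to 0.26 (0.19) with the probe set of smallest spread. Of the 21 genes named with all arrays and the 18 called probe sets, no other changed direction where an alternative gave a value; Fancb and Ercc2 have no bright probe set. These fits covered the other listed genes too, but their gene values in them are not given here. Rad50, at -0.25 by gene mean, has 1 bright probe set, at 0.76 (limma adjusted p = 0.00595 in the bright fit). Lig3, at -0.15, has 2, at 0.12 and 0.37. Among the genes named with all arrays, 7 gained a call with bright probe sets alone (Fancl, Fanci, Rad54l, Blm, Trp53bp1, Pms2, Ercc5). With the least variable probe set 7 did (Fancc, Fancl, Rad54l, Blm, Chek1, Pms2, Ercc5). Other listed genes gained calls as well, since the listed genes called numbered 20 and 21 in these settings, against 9 as reported. The share of all genes called in these settings is not given, and whether the rise is particular to the listed genes was not tested. Centred values hide absolute signal, so noise near background could be judged from the bright rule alone.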
